A study of Mus musculus with 9 samples.

Results

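Fatty acid synthesis and desaturation were followed through 10 genes, taken by name from the 54456 gene names of the deposited count table, and all 10 passed the filter on low counts. They are the enzyme genes Acly, Acaca, Fasn, Scd1, Scd2, Fads1, Fads2, Elovl5 and Elovl6 and the transcription factor gene Srebf1. RNA was taken from wild-type (WT) mouse mammary epithelium that had been sorted by flow cytometry, aggregated and placed in 80% Matrigel near heparin sulfate beads of 100 to 150 µm carrying FGF10, a fibroblast growth factor. The 3 groups, each of 3 libraries, are basal aggregates, luminal aggregates and mixed aggregates made from 50% of each cell type. Migration lasted 56 h by the treatment label and 55 h by the titles. FGF10 was present in all 3 groups, so no effect of FGF10 can be read from the values. Mouse strain and age are not given in the labels. They also do not say whether libraries of a group are separate animals or cultures, so p-values measure only the spread between these libraries, which may be technical.

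Cells build fatty acids from citrate that leaves the mitochondrion. Acly cleaves citrate to acetyl-CoA, Acaca carboxylates acetyl-CoA to malonyl-CoA, and Fasn joins these units into palmitate. Elovl6 lengthens saturated and monounsaturated chains, Scd1 and Scd2 place a double bond in saturated chains to give oleate and palmitoleate, and Fads1, Fads2 and Elovl5 turn dietary essential fatty acids into long polyunsaturated ones. Srebf1 encodes SREBP-1, a membrane-bound factor that is cut and then activates many of these genes, while SREBP-2, from Srebf2, acts mainly on cholesterol synthesis. In the mammary gland this pathway is best known from luminal cells at lactation, when they secrete milk fat.

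Total counts per library lay between 15585324 and 19164405, and 3 counts corresponded to 0.157 to 0.192 counts per 1 M counts of the library. Levels below are in CPM, counts per 1 M of a library size that was scaled by TMM (trimmed mean of M values). The 9 columns carry 3 different name prefixes, called code series here, whose meaning is not given in the sources used here. All mixed libraries and basal 2 are of series A. Luminal 1 is of series B together with the other two basal libraries, and series C is made up of luminal 2 and luminal 3. Mixed and luminal libraries never share a series, so series and group cannot be told apart between them except through basal libraries. The labelled cell types matched their markers, since the summed level of 7 basal markers was 9157 to 10441 CPM in basal and 1399 to 2749 CPM in luminal libraries, and that of 7 luminal markers was 2568 to 2876 CPM in basal and 5584 to 8193 CPM in luminal libraries. Markers of fat cells, which are strongly lipogenic, were near 0: 8 of them together reached 0.431 to 1.43 CPM over the 9 libraries, and none passed 1.19 CPM in any library. Summed immune markers (5 genes) reached 36.5 to 61.2 CPM in the mixed libraries and 43.5 CPM in basal 2, against 0.977 to 2.74 CPM in the other 5 libraries. Ptprc, which all leukocytes carry, stayed at or below 0.744 CPM. In the mixed libraries and basal 2 these sums were mostly Cd74 (26.3 to 36.4 CPM) and Lyz2 (8.30 to 33.7 CPM). Ptprc, Cd3e and Csf1r stood at or below 1.14 CPM each there.

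Scd1 and Scd2 are neighbours on chromosome 19 and close copies, so the sequences show first whether reads can separate them. Their coding sequences (GENCODE M21 transcripts, build GRCm38) were identical at 90.4% of 1068 aligned bases. The 90-base window printed here is the first whose identity lies nearest to that value. It spans coding bases 130 to 219 of Scd1 and 139 to 228 of Scd2, and capitals mark the 9 bases that differ.
Scd1: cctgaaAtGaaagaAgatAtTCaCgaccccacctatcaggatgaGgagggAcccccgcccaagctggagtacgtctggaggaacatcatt
Scd2: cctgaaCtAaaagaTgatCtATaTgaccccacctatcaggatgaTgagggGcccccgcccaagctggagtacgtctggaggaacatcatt

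Over the whole transcripts the copies were more distinct. Of all 100-base stretches, 2.66% in Scd1 and 0.896% in Scd2 recurred in transcripts of another gene. Acly, Fasn, Fads1, Fads2, Elovl5 and Srebf1 had no such stretch, and Elovl6 had 0.974%. Acaca was the exception, with 42.8% of its stretches shared with Gm5182. Multi-mapping reads were left out of the counts, and the level of Acaca is uncertain for that reason. The table lists Gm5182 at 12.95 to 31.3 CPM in series B and C and at 2.18 to 4.61 CPM in series A.

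The promoters of Fasn and Elovl5, which differed between luminal and basal aggregates, are printed here. Beside them stands that of Elovl6, which did not pass the test in any comparison. Windows of the other genes are described after them. RefSeq's table (build GRCm38.p6) gave 9 start sites for 7 of the 10 genes. Scd1, Scd2 and Fads1 had no entry. Capitals mark matches, on either strand, to the NF-Y box CCAAT, the E-box CACGTG, the GC box GGGCGG or the sterol regulatory element TCACNCCAC, over the 250 bases before the start site.
Fasn, chr11:120824548-120824797, minus strand: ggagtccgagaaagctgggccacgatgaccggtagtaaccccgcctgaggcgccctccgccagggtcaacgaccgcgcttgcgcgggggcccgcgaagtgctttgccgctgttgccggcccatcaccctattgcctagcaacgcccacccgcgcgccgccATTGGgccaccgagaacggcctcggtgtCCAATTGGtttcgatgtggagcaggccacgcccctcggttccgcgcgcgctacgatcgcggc
Elovl5, chr9:77917115-77917364, plus strand: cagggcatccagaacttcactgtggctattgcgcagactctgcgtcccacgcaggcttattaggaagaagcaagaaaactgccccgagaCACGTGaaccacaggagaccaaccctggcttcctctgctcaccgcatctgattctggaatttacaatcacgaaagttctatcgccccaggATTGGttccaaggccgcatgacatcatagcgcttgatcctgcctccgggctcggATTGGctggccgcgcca
Elovl6, chr3:129532136-129532385, plus strand: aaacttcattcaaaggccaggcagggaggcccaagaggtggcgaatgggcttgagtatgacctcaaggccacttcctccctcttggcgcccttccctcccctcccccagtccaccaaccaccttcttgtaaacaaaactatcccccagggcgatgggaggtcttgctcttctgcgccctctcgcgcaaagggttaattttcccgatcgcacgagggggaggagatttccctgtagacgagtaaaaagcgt

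The Fasn window held 3 matches to the NF-Y box, of which a pair overlapped on opposite strands, and the Elovl5 window held 2, with 1 E-box. No match was found in the Elovl6 window. The Acly window held 4 GC boxes and the Fads2 window 1. Neither held an NF-Y box, and both genes were lower in luminal than in basal aggregates. Srebf1, which did not pass in that comparison, had 3 windows, of which 2 held an NF-Y box and 2 held GC boxes. The Acaca window held none of the motifs. By the shift between builds seen for the other genes on chromosome 11, this window lies inside Acaca. Sequence before the first exon of Acaca was therefore not examined. No window of these genes held the sterol regulatory element as spelled here, which 1.05% of all 32851 windows of the same length held. The NF-Y box was in 33.8% of them, the GC box in 32.7% and the E-box in 6.02%. A match to the NF-Y or GC box is therefore common among promoters. Whether any match bears on the levels of these genes was not tested.

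Luminal aggregates held far more Scd1 transcript than basal ones and less of most of the other lipogenic genes. Of the 10 genes 1 was higher and 7 were lower in luminal than in basal aggregates, where 12.8% of all 18051 genes tested were higher and 14.4% lower, 27.1% in either direction. Elovl6 and Srebf1 did not pass. The median log2 difference was -1.02 for the 10 genes and -0.02 for all genes tested. The values of the 8 called genes did not overlap between the groups, a pattern that 46.6% of all tested genes shared.

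**Figure D1:**
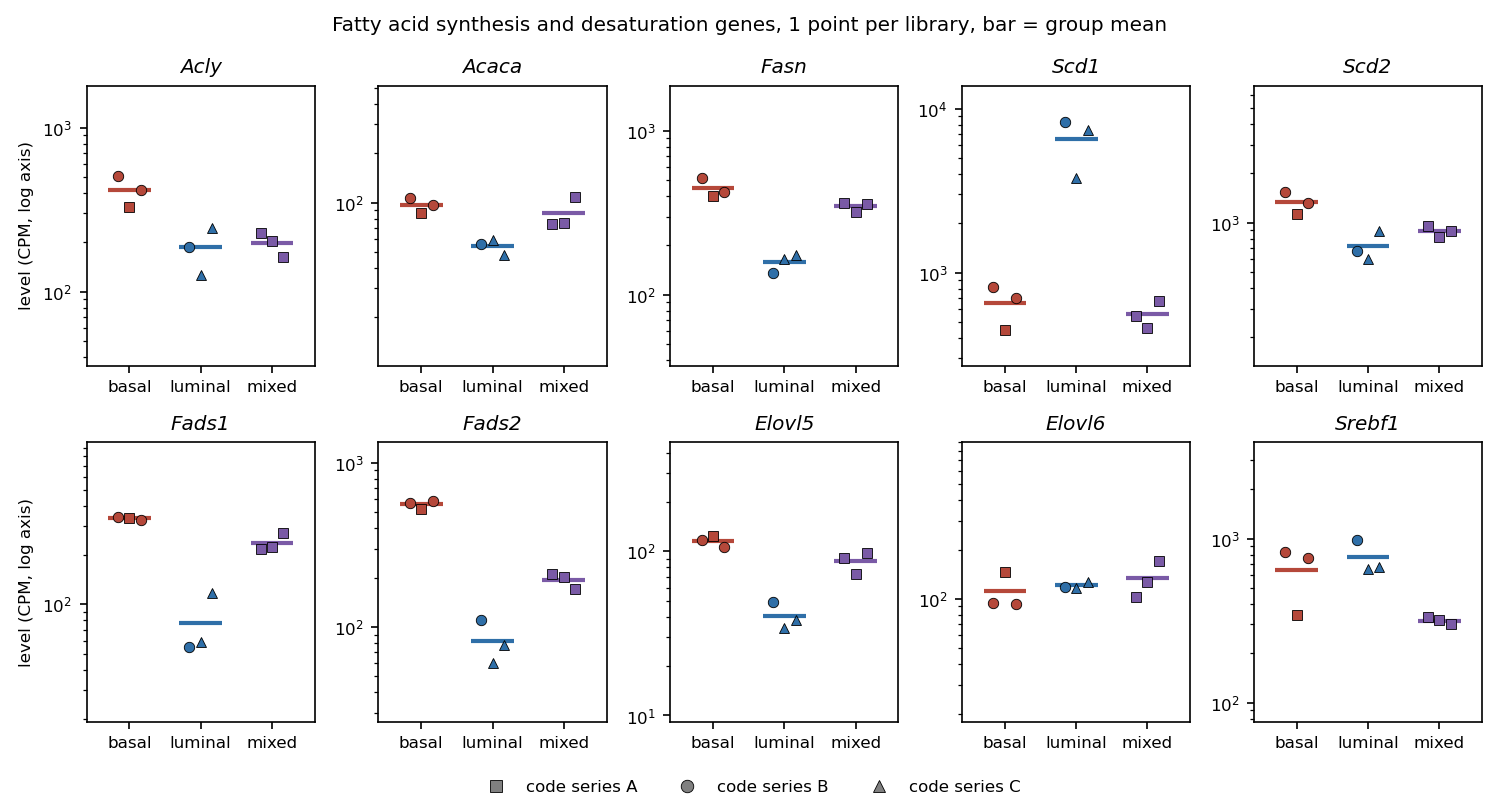
Level of each of the 10 genes in the 9 libraries, in CPM on a log axis whose range differs between panels. Points are libraries, bars are group means, colours are groups and marker shapes are code series. Luminal libraries lie above all others for Scd1 and below the basal ones for 7 genes, and basal 2 lies with the mixed libraries for Srebf1.

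Scd1 (mm39 chromosome 19, 44382894 to 44396318) stood at 8295, 3787 and 7423 CPM in luminal 1, 2 and 3 and at 817, 449.7 and 700.0 CPM in basal 1, 2 and 3. The groups were far apart, and luminal 2 was the lowest of its group. The level was 9.92-fold higher in luminal aggregates (log2 difference 3.31 ± 0.33, SE, adjusted p = 1.9e-05), and 3.45 ± 0.35 with the code series as a term, which compares luminal 1 with basal 1 and 3 within series B. Scd1 alone took 0.635 ± 0.246% of all counts in luminal and 0.0715 ± 0.0261% in basal aggregates (SD, n = 3). By mean level per kb of exon it ranked 24 among all gene names in luminal and 482 in basal aggregates.

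Scd2 (chromosome 19, 44282113 to 44295303), the sister desaturase gene, went the other way. It stood at 671, 598 and 898 CPM in luminal 1, 2 and 3 and at 1537, 1133 and 1328 CPM in basal 1, 2 and 3, so every luminal library was below every basal one. The difference was -0.88 ± 0.20 (adjusted p = 0.0056), 1.84-fold lower in luminal aggregates. Set per kb of exon, Scd1 made up 90.4 ± 2.82% of the summed level of Scd1 and Scd2 in luminal aggregates, 35.0 ± 3.72% in basal and 41.0 ± 4.03% in mixed ones (SD, n = 3). The luminal libraries lay between 87.6% and 93.2% and all others between 30.7% and 45.7%.

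The genes that make palmitate were lower in luminal aggregates. Fasn (chromosome 11, 120696672 to 120715373), the fatty acid synthase gene, stood at 135, 164 and 174 CPM in luminal 1, 2 and 3 and at 513, 403 and 421 CPM in basal 1, 2 and 3. Its 3 luminal libraries lay close together and well below the basal ones (-1.50 ± 0.17, adjusted p = 5.3e-05, 2.83-fold lower). Acly (chromosome 11, 100367179 to 100418826), which supplies acetyl-CoA, stood at 188, 126 and 246 CPM in luminal and 505, 329.6 and 417 CPM in basal 1, 2 and 3. Luminal 2 was the lowest library and basal 2 the lowest of the basal ones (-1.16 ± 0.25, adjusted p = 0.0052). Acaca (chromosome 11, 84020498 to 84292477), whose product makes malonyl-CoA, ranged from 48.1 to 59.0 CPM in luminal and from 86.3 to 107 CPM in basal libraries (-0.83 ± 0.19, adjusted p = 0.0066). With the code series as a term the calls of Acly (-1.29, adjusted p = 0.053) and Acaca (-0.86, adjusted p = 0.087) ended, while the other 6 calls stayed.

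Desaturases of the polyunsaturated branch showed the deepest reduction among the 10 genes. Fads2 (chromosome 19, 10040129 to 10079110), the delta-6 desaturase gene and the entry step of that branch, stood at 110, 60.5 and 77.5 CPM in luminal 1, 2 and 3 and at 572, 521 and 583 CPM in basal 1, 2 and 3. Its level was 6.77-fold lower in luminal aggregates (-2.76 ± 0.22, adjusted p = 4.4e-06). Fads1 (chromosome 19, 10160252 to 10174241), the delta-5 desaturase gene, stood at 54.99, 59.1 and 117 CPM in luminal and at 340.1, 337 and 327 CPM in basal 1, 2 and 3. Luminal 3 was higher than the other luminal libraries, yet below every basal library (-2.12 ± 0.27, adjusted p = 0.00012, 4.34-fold lower).

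The elongase genes differed from each other. Elovl5 (chromosome 9, 77824646 to 77891801), which lengthens polyunsaturated chains, stood at 49.1, 34.0 and 38.2 CPM in luminal 1, 2 and 3 and at 117, 124 and 107 CPM in basal 1, 2 and 3, with no overlap (-1.52 ± 0.19, adjusted p = 8.8e-05). Elovl6 (chromosome 3, 129326004 to 129432144), which lengthens palmitate to stearate, the substrate of the Scd enzymes, ranged from 117 to 127 CPM in luminal and from 93.7 to 146 CPM in basal libraries. Here basal 2 was the highest and the groups overlapped (0.12 ± 0.23, adjusted p = 0.76). Per kb of exon, Elovl6 stood at 1.68 ± 0.303 times the level of Elovl5 in luminal and at 0.521 ± 0.109 times in basal aggregates (SD, n = 3).

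Transcripts of the regulator Srebf1 (chromosome 11, 60089915 to 60113407) did not pass the test between luminal and basal aggregates. They stood at 979, 651 and 671 CPM in luminal 1, 2 and 3 and at 825, 340.5 and 766 CPM in basal 1, 2 and 3 (0.25 ± 0.29, adjusted p = 0.59), and without basal 2 the difference was -0.058 (adjusted p = 0.88). Basal 2 was the lowest of these 6 libraries, and the groups overlapped. Counts of Srebf1 are summed over start sites, so the SREBP-1a and SREBP-1c forms cannot be told apart. In contrast, Srebf2 stood at 100.9 to 120 CPM in luminal and 247 to 257 CPM in basal libraries (-1.18 ± 0.15, adjusted p = 9.9e-05), and Insig1, which holds both factors in the membrane and is itself a target of them, was also lower (-2.25 ± 0.28, adjusted p = 9.9e-05). Per kb, Srebf1 stood at 8.93 ± 3.001 times the level of Srebf2 in luminal and 3.26 ± 1.35 times in basal aggregates (SD, n = 3). The cut SREBP proteins were not measured, and the part of either factor in the enzyme gene levels was not tested.

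**Figure D2:**
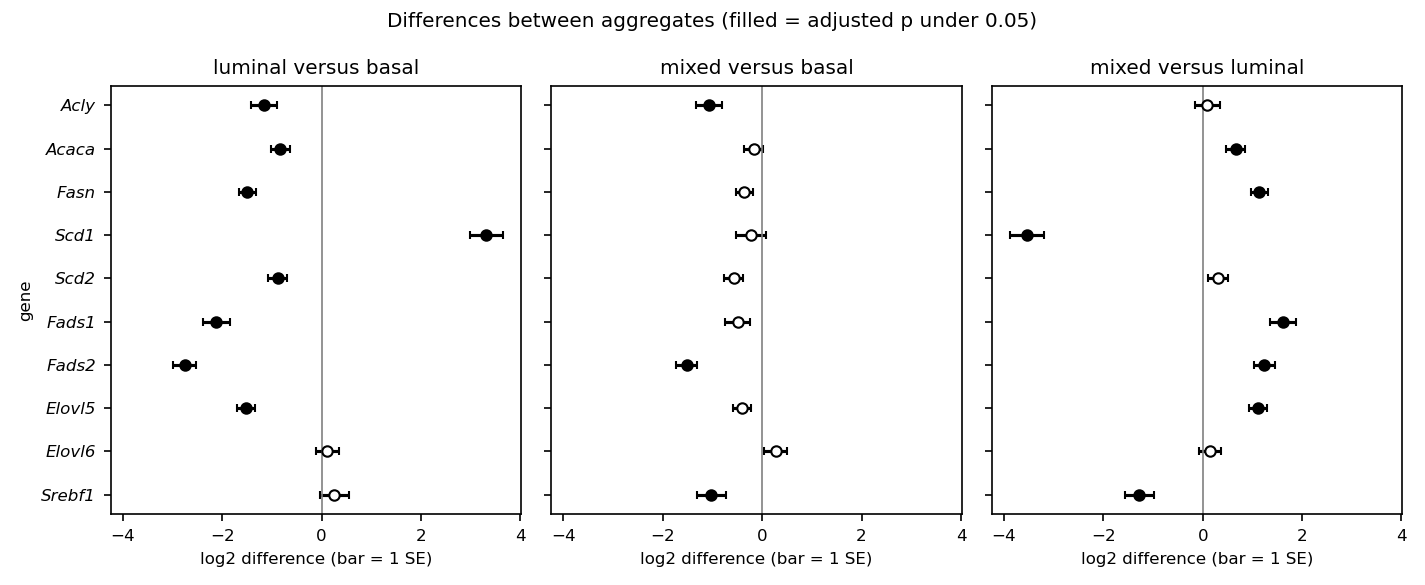
Log2 differences of the 10 genes in the 3 comparisons, with bars of 1 SE from the fit of all 9 libraries. Filled points passed an adjusted p of 0.05: 8 genes in luminal against basal, 3 in mixed against basal and 7 in mixed against luminal aggregates. Comparisons share libraries and are not independent.

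Scd1 in mixed aggregates was near its basal level and far below its luminal level. Scd1 stood at 547, 462 and 673 CPM in mixed 1, 2 and 3, all within the range of the basal libraries and far below every luminal one. The difference from basal aggregates was -0.23 ± 0.30 (adjusted p = 0.66), and that from luminal aggregates was -3.54 ± 0.33 (adjusted p = 2.8e-05, 11.6-fold lower). With the code series as a term the difference from basal turned to 0.32 ± 0.35 (adjusted p = 0.73) and that from luminal stayed at -3.13 ± 0.47 (adjusted p = 0.00997). Scd3, another desaturase copy, was chosen after its values were seen and is uncertain because some of its stretches recur in Scd1. It stood at 11.04 to 19.9 CPM in luminal, 2.54 to 4.25 CPM in basal and 1.37 to 5.05 CPM in mixed libraries (mixed against luminal -2.29 ± 0.48, adjusted p = 0.0057).

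A mixture of equal parts would lie at the mean of the pure levels if both cell types kept their levels and held equal amounts of RNA, which were not measured. In bulk RNA fewer cells of a type and less RNA per cell cannot be told apart. Scd1 in mixed aggregates stood at 0.157 times that mean, from 0.129 to 0.188 in the 3 libraries. Among the 1882 genes that were higher in luminal than in basal aggregates and had a mean of at least 10 CPM, the median ratio was 0.855, and 10 genes including Scd1 (0.531%) lay at or below its ratio. Among the 140 of them that were higher by at least 3 on the log2 scale, as Scd1 was, the median was 0.690 and 6 (4.29%) lay at or below it. The share of luminal cells in the mixed aggregates at the end was not measured. Of the 7 luminal markers, Krt19 and Kit were higher in mixed than in luminal aggregates (1.76 ± 0.19 and 1.03 ± 0.26), Krt18, Cldn4 and Muc1 were lower (-0.97 ± 0.21, -1.46 ± 0.23 and -0.57 ± 0.17), and Krt8 and Elf5 did not pass. Their sum was 7696 to 9172 CPM in mixed and 5584 to 8193 CPM in luminal libraries, of which Krt19 alone gave 3997 to 5014 CPM and 1069 to 1637 CPM. The part of luminal cell number in the Scd1 values was not tested.

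**Figure D3:**
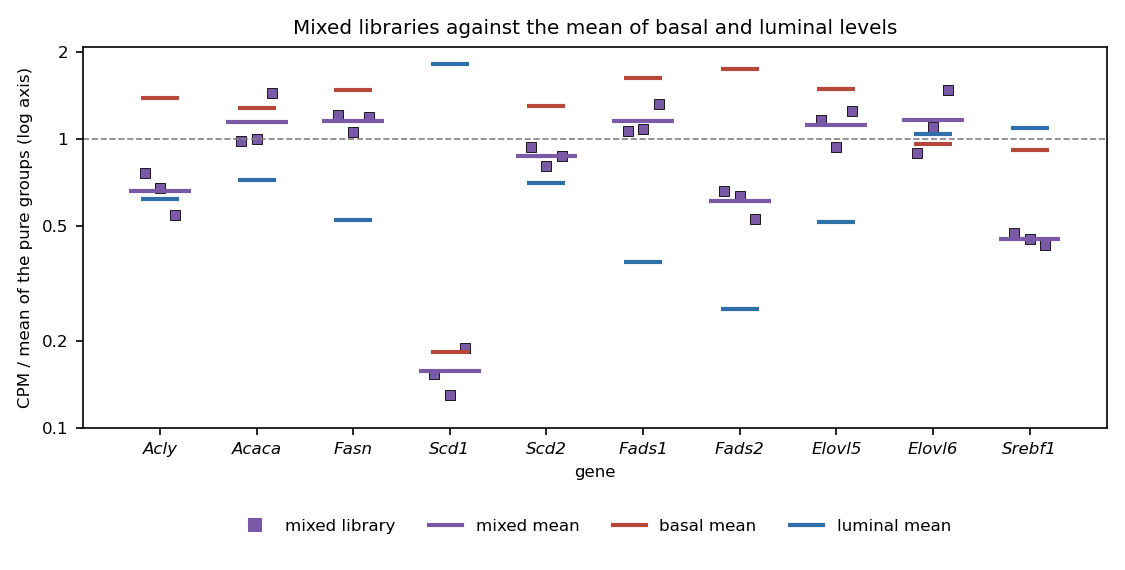
Level in each mixed library divided by the mean of the basal and luminal group means, on a log axis, for the 10 genes. Squares are mixed libraries, and bars are the means of the 3 groups on the same scale. Scd1 (0.157) and Srebf1 (0.449) lie lowest, and the dashed line at 1 marks the mean of the pure groups.

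Srebf1 was also low in mixed aggregates, at 332, 317 and 301 CPM in mixed 1, 2 and 3. All 3 lay below every basal and luminal library, with basal 2 (340.5 CPM) next to them, and the mean was 0.449 times that of the pure groups. The difference was -1.02 ± 0.29 from basal (adjusted p = 0.041) and -1.28 ± 0.30 from luminal aggregates (adjusted p = 0.0093). As a level below both pure groups it did not pass (adjusted p = 0.19, where 0.0388% of all genes passed below and 0.0499% above), and it did pass without basal 2 (adjusted p = 0.0056). The 4 low libraries are those of code series A, and with the series as a term the difference from basal aggregates was -0.10 ± 0.17 (adjusted p = 0.83) and that from luminal ones -0.40 ± 0.24 (adjusted p = 0.57). The same 4 libraries carried the immune marker transcripts given above (36.5 to 61.2 CPM against at most 2.74 CPM elsewhere), and the part of either in the Srebf1 values was not tested.

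Against basal aggregates 3 of the 10 genes were lower in mixed ones and 0 were higher by edgeR's test, where 7.33% of all genes were lower and 6.39% higher, 13.7% in all. At an unadjusted p under 0.05 none was higher either, and DESeq2 called 4 lower and 0 higher. Fads2 stood at 211, 203 and 169 CPM in mixed 1, 2 and 3, below every basal and above every luminal library. It differed by -1.52 ± 0.21 from basal (adjusted p = 0.0011) and by 1.24 ± 0.21 from luminal aggregates (adjusted p = 0.002), and against basal 2 within series A by -1.42 ± 0.19 (adjusted p = 0.0038). Acly stood at 230, 203 and 164 CPM, in the range of the luminal libraries (-1.07 ± 0.25 from basal, adjusted p = 0.018; 0.09 ± 0.25 from luminal, adjusted p = 0.81). The Acly call against basal ended without basal 1, basal 3, mixed 2 or mixed 3 (adjusted p = 0.073, 0.06, 0.054 and 0.067) and with the code series as a term (-0.73, adjusted p = 0.28). That of Srebf1 ended with the series term, with these 2 groups fitted alone (adjusted p = 0.068), with any single library of these groups other than basal 2 left out (0.089 to 0.16) and with luminal 3 left out (0.0504).

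The means of Fasn, Fads1, Elovl5 and Scd2 in mixed aggregates lay between those of the pure groups, nearer to luminal for Scd2 and nearer to basal for the others. Fasn stood at 364, 319 and 357 CPM in mixed 1, 2 and 3, above every luminal and below every basal library. Its difference was -0.36 ± 0.17 from basal (adjusted p = 0.17) and 1.14 ± 0.17 from luminal aggregates (adjusted p = 0.00079). Fads1 stood at 218, 223 and 271 CPM, also between both groups (-0.50 ± 0.26, adjusted p = 0.23, and 1.62 ± 0.26, adjusted p = 0.0014). Elovl5 ranged from 73.2 to 97.5 CPM and differed from luminal aggregates by 1.11 ± 0.18 (adjusted p = 0.0016). Scd2 ranged from 825 to 961 CPM and overlapped the luminal libraries (0.31 ± 0.19, adjusted p = 0.25), while its difference from basal was -0.58 ± 0.19 (adjusted p = 0.072).

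Against luminal aggregates 5 of the 10 genes were higher and 2 lower in mixed ones, where 15.2% of all genes were higher and 14.2% lower, 29.4% in all. Groups did not overlap for 7 of the 10 genes, as for 51.1% of all genes tested, and against basal aggregates for 7, as for 33.1% of all. Acaca ranged from 74.2 to 109 CPM, with mixed 3 the highest of all libraries (0.66 ± 0.19, adjusted p = 0.023). Its call ended without luminal 1, luminal 3 or mixed 3 (adjusted p = 0.064, 0.093 and 0.093). Elovl6 ranged from 103 to 171 CPM in mixed libraries and passed in neither comparison. With the code series as a term, which reaches this comparison only through basal libraries, the calls of Fasn (1.57, adjusted p = 0.02) and Scd1 remained. Those of Fads1 (2.09), Acaca (0.85), Fads2 (0.98), Elovl5 (0.68) and Srebf1 (-0.40) ended (adjusted p = 0.066 to 0.57), with larger differences than without the term for Fads1 and Acaca and smaller ones for the other three.

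The order of the 10 genes by level per kb of exon changed between the aggregates. In luminal aggregates Scd1 led with 1329 ± 489 CPM per kb (SD, n = 3), ahead of Srebf1 (136 ± 32.6) and Scd2 (132 ± 28.6), which overlapped. Acly, Fads2, Elovl6, Fads1, Fasn and Elovl5 followed between 35.4 and 11.5 CPM per kb, each overlapping its neighbour, and Acaca was last at 3.19. In basal aggregates Scd2 led with 244 ± 37.0 CPM per kb, followed by Fads2 (169.6 ± 10.1), Scd1 (134 ± 38.3) and Srebf1 (114 ± 46.9), which overlapped their neighbours. In mixed aggregates Scd2 (163.5 ± 12.4) stood above Scd1 (115 ± 21.7) in every library, and Fads2 (59.0 ± 6.72), Srebf1 (56.2 ± 2.68) and Fads1 (49.3 ± 6.16) followed with overlap. Acaca was last in every group, but this place is uncertain. Reads of several alignments were left out of its counts. Its level was also divided by 17074 exon bases, while the transcript compared above holds 9513.

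Other genes of lipid synthesis did not share a common direction in luminal aggregates. Of 76 listed genes 73 were tested, of which 17 were higher and 24 lower than in basal aggregates (median log2 difference -0.01). The shares of all genes tested, against which this and the counts per list are read, were 12.8% higher and 14.4% lower. Genes of the elongation cycle were higher in 2 and lower in 4 of 9 (median -0.94). The dehydratase genes Hacd1 and Hacd2 differed by -1.74 ± 0.31 and -1.31 ± 0.21 and the enoyl reductase gene Tecr by -0.94 ± 0.29. Hacd3 and Elovl7 differed by 0.62 ± 0.16 and 0.57 ± 0.18. Basal 2 was the highest basal library for Hacd1, Hacd2 and Tecr. Tecr stood at 353, 845 and 416 CPM in basal 1, 2 and 3 and at 240 to 339 CPM in luminal libraries. The size of its difference thus depends on basal 2. Elovl3 was at 0 counts in all luminal libraries and at 0.152 to 0.977 CPM in basal ones, and with it at the bound that 3 counts allow (-1.68) the list's median is set by Tecr as before. Other desaturases were higher in 2 and lower in 1 of 6, and the ceramide desaturase gene Degs1 differed by -0.84 ± 0.19.

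Genes that supply acetyl-CoA, malonyl-CoA and NADPH were higher in 5 and lower in 3 of 12 (median 0.57). The malic enzyme gene Me1 and the pentose phosphate gene Pgd, both sources of NADPH, differed by 1.93 ± 0.19 and 0.85 ± 0.15, and Mlycd, which breaks malonyl-CoA down, by 1.35 ± 0.19. The acetyl-CoA synthetase gene Acss2 differed by -1.40 ± 0.34, Mid1ip1, an activator of acetyl-CoA carboxylase, by -0.63 ± 0.20, and the citrate carrier gene Slc25a1 by -0.55 ± 0.18. Of the exon bases of Acss2, 9.12% are shared with other genes, and of those of Mid1ip1, 25.5%, so their counts are uncertain. Acyl-CoA ligation and glycerolipid genes were higher in 5 of 16 (median 0.65, lowest -0.39). Plin2, a coat protein of lipid droplets, differed by 1.40 ± 0.23, the ligase gene Acsl1 by 1.26 ± 0.27 and Dgat1, which completes triglycerides, by 1.18 ± 0.19. Acsl1 shares 9.91% of its exon bases with another gene, so the same limit holds for it.

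SREBP processing and lipogenic transcription factor genes were higher in 3 and lower in 4 of 16 (median -0.02). Besides Insig1 and Srebf2, Nfyc, a subunit of NF-Y, was lower (-0.68 ± 0.21), and the oxysterol receptor gene Nr1h2 (0.70 ± 0.14), Mlx (0.56 ± 0.17) and Insig2 (0.52 ± 0.17) were higher. Mlx shares 19.3% of its exon bases with another gene, so its count is uncertain. SREBP-2 target genes of cholesterol synthesis and uptake were lower in 12 of 14 (median -2.23), the lists' lowest median. Some of these also share exon bases, up to 26.7% for Fdps. As values that move with these groups, summed fibroblast markers (6 genes) stood at 116 to 150 CPM in basal, 6.77 to 11.01 CPM in luminal and 47.8 to 62.6 CPM in mixed libraries. Fbln1 alone gave 90.5 to 131 CPM of the basal and 29.2 to 33.1 CPM of the mixed sum, the other 5 genes stayed at or below 9.86 CPM each in every library, and Lum was near 0. The part of such cells in the lipid gene values was not tested.

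**Figure D4:**
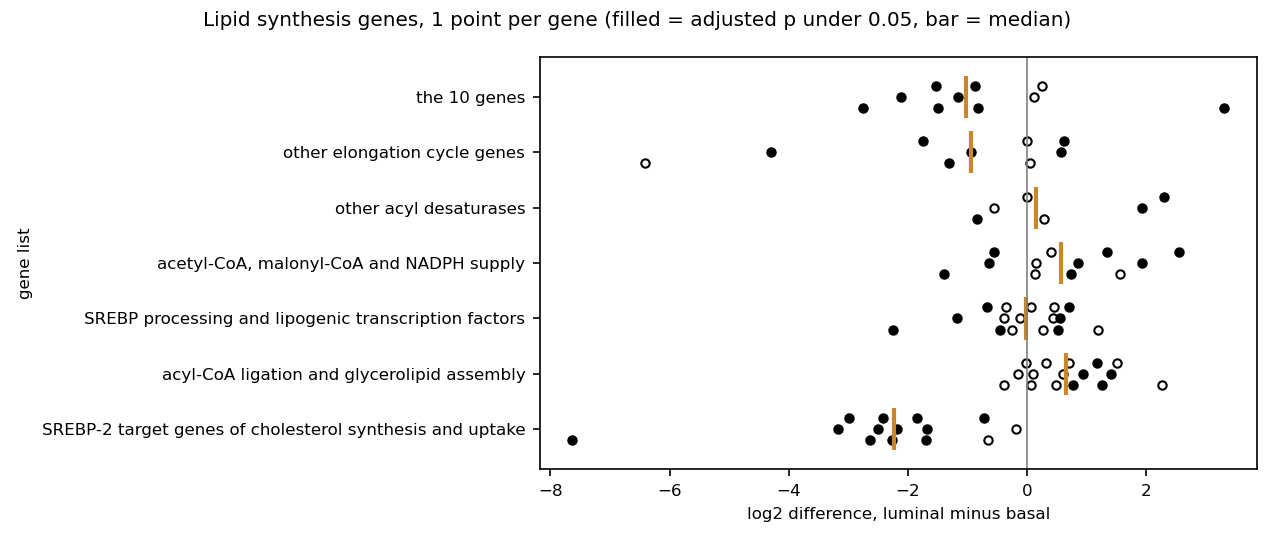
Log2 differences between luminal and basal aggregates for the 10 genes and 6 lists of other lipid genes, 1 point per gene and a bar at each list's median. Filled points passed an adjusted p of 0.05. The SREBP-2 targets lie lowest (median -2.23), the glycerolipid genes highest (median 0.65), and the open point at -6.41 is Elovl3, whose fitted value rests on 0 luminal counts and is no bound.

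In mixed against luminal aggregates 20 of these 73 genes were higher and 21 lower, where 15.2% and 14.2% of all genes tested were. Against basal ones 2 were higher and 8 lower, where 6.39% and 7.33% of all genes were. The calls together were thus no more frequent than the 13.7% of all genes. With the code series as a term, 491 of all genes tested were called against luminal aggregates instead of 5309. Against basal ones 853 were called instead of 2477. Mixed and luminal libraries share no series, and its part in the list counts was not tested. SREBP-2 targets were higher than in luminal aggregates in 11 of 14 (median 1.80). Plin2, Dgat1 and Acsl1 were lower than in luminal aggregates by -1.94 ± 0.24, -1.75 ± 0.20 and -1.27 ± 0.27, and stood at 0.378, 0.412 and 0.583 times the mean of the pure groups. In contrast, Me1 lay between the groups, at 176 to 182 CPM in mixed, 279 to 384 CPM in luminal and 74.3 to 105 CPM in basal libraries. Among SREBP regulators the escort gene Scap and the protease gene Mbtps1 were lower in mixed than in basal aggregates (-0.66 ± 0.15, adjusted p = 0.013, and -0.83 ± 0.23, adjusted p = 0.035). Of the exon bases of Scap, 13.2% are shared with another gene. Basal 2, of code series A like the mixed libraries, was the lowest basal library for both. Scap stood at 113, 96.3 and 117 CPM and Mbtps1 at 168, 95.0 and 149 CPM in basal 1, 2 and 3. In mixed libraries they ranged from 66.1 to 73.0 and from 71.9 to 82.4 CPM. Acss2 (-1.73 ± 0.35) and Gpat4 (-0.81 ± 0.19) were lower and Me1 (1.01 ± 0.18) and Elovl7 (0.66 ± 0.18) higher than in basal aggregates.

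The genes whose pattern over the 9 libraries was most like that of Fasn were Trp63, Jag2, Racgap1, Ncapg and Axl, with Pearson's r of 0.986 to 0.989 in log2 CPM among 10608 genes of at least 10 CPM. This is a description, since all points share the same libraries and the 3 groups set most of the variation. Trp63, the basal transcription factor p63, stood at a mean of 102 CPM in basal, 11.5 CPM in luminal and 60.9 CPM in mixed aggregates. Ncapg, a chromosome condensation gene, stood at 52.1, 3.07 and 28.3 CPM in the same order.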

How the data were processed

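The authors deposited 1 table of counts, not normalized, for 9 libraries, with exon length per gene name. Per the file headers, read pairs were counted over exons with featureCounts 2.0.1 without strand and without reads of several alignments. Per the submitters' processing notes, Trim Galore and Subread were used with build mm39. The annotation release is not given in the sources used here.

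From these counts, genes passing filterByExpr were scaled by TMM and fitted over all 9 libraries with 3 groups in edgeR 4.0.16 (R 4.3.3), leaving 6 residual degrees of freedom. Contrasts were tested two-sided with its robust quasi-likelihood F test. P-values were adjusted over 18051 genes by Benjamini-Hochberg, with a threshold of 0.05. For a level outside both pure groups, the larger p of both contrasts was adjusted. SE is the log2 difference divided by the root of F. CPM are TMM-scaled without a pseudocount. The test was also run on simulated counts of independent libraries without an effect of the code series. That run therefore cannot show how the test behaves where series and group overlap.

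The 10 genes and all lists were chosen with earlier results of these data known. Named pathway genes are at most 3 higher and 3 lower called genes per list and contrast, by size of the log2 difference, with a mean of at least 10 CPM. Replicate numbers are those of the titles. Same-numbered libraries were not more alike than others (r from -0.17 to 0.20 over genes). Alternatives were other scalings and filters, DESeq2 1.42.0, limma-voom 3.58.1, fits of 2 groups, the replicate block, the code series as a term (4 residual degrees of freedom) and each library left out. Reads carried no molecular identifiers that the sources mention, so the limits set by 3 counts cover counting error only. The SE also holds the spread between libraries.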

Additional observations from a re-analysis of the deposited data

How the results depend on the processing

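Of 540 log2 differences of the 10 genes under the alternatives, 505 kept their direction and their side of the threshold, 23 lost and 5 gained a call, and 7 changed sign, all without a call in the reported fit. Luminal against basal aggregates gave 1 higher and 7 lower of the 10 genes with every library left out in turn, and 3678 to 5393 called genes, as against 2507 with the code series as a term. In mixed against basal aggregates, called genes numbered 4004 with DESeq2, 3903 without a filter on low counts and 853 with the series term (963 to 5120 with 1 library left out, the highest without basal 2, the lowest without basal 3, and 1176 without basal 1), and lower genes among the 10 numbered 1 with the series term (1 to 4 with 1 library left out). In mixed against luminal aggregates, 491 genes were called with the series term, 1 of the 10 higher and 1 lower (2967 to 6774 called, 4 to 5 higher with 1 library left out, with 2967 called without luminal 3 and 3243 without luminal 1). Srebf1 passed as below both pure groups with DESeq2, without a filter and without basal 2 (1 gene each, and 0 to 1 over the libraries left out). The sign changes were Scd1 (0.32) and Elovl6 (-0.13) in mixed against basal and Elovl6 (-0.47) in mixed against luminal aggregates with the series term, Srebf1 in luminal against basal without basal 2 (-0.058, and up to 0.49 without basal 1), and, in mixed against luminal, Acly without luminal 2 (-0.14) or mixed 1 (-0.03, and up to 0.33 without luminal 3) and Elovl6 without mixed 3 (-0.074, and up to 0.30 without mixed 1). Fewer residual degrees of freedom or fewer libraries enter several of these fits, and the cause was otherwise not tested. With the title number as replicate block, 4548, 2127 and 5006 genes were called in the 3 contrasts, no call of the 10 genes changed, and 4 of 9 libraries correlated best with their own number. Library size scaling moved the median gene from -0.02 to -0.17 in luminal against basal and from -0.07 to -0.22 in mixed against basal aggregates, and the share of higher genes among calls from 47.0% to 35.0% and from 46.6% to 33.6%, while the calls of the 10 genes stayed except that Scd2 became lower in mixed than in basal aggregates (-0.75, adjusted p = 0.034). At this depth none of the 10 genes was limited by counting, since the lowest held 573 counts in a library.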
